A study of Mus musculus with 2 samples.

Results

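The let-7 family was described through its guide strands, the 5p mature names of let-7a, b, c, d, e, f, g and i and of miR-98. All 9 of these names, out of 1477 miRNA names with a count in either library, were listed in both libraries. They were chosen by name and not by their values, though with earlier results of these data known. The libraries came from cultured mouse skin keratinocytes, labelled as epithelial cells, that were grown in a low calcium medium, exogenously expressed a fusion of the desmosomal protein desmoplakin with the biotin ligase BirA (Dsp-BirA), and were treated with biotin. Biotinylated proteins and the RNA bound to them were captured on streptavidin beads from DNase- and RNase-treated lysates, with the question of what Argonaute proteins, which carry miRNAs, do at the desmosomal plaque. There was 1 group of 2 libraries, replicates 1 and 2, and every statement on a shift compares these libraries and not conditions. The labels do not say that the replicates were separate cultures, so the spread between them may be technical. No library without the fusion, without biotin or of total cellular RNA was analysed here, so the values are levels in the captured RNA and not enrichments.

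A miRNA guides Argonaute to mRNAs mainly through its seed, bases 2 to 8, and names with a common seed can recognise overlapping sets of targets. The let-7 family restrains growth and the fetal programme in many tissues, with the RNA-binding protein Lin28 and the chromatin protein Hmga2 among its best known targets. Lin28 in turn blocks the processing of let-7 precursors, and mature let-7 accumulates as cells differentiate. Each hairpin precursor yields a 5p and a 3p strand, and in this family the 5p strand is the usual guide.

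The mature sequences are shown because the members share the seed and differ only at a few later bases, apart from the first base of let-7d-5p. They were taken from RefSeq (GRCm38.p6), where all 9 names matched, and are printed 5′ to 3′ in the order of abundance found here, with the seed in capitals.

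mmu-let-7c-5p: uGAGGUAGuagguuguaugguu
mmu-let-7b-5p: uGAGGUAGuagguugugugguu
mmu-let-7a-5p: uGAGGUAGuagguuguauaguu
mmu-let-7f-5p: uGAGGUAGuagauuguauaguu
mmu-let-7e-5p: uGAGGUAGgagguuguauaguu
mmu-let-7g-5p: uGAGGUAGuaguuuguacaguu
mmu-let-7d-5p: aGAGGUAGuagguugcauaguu
mmu-let-7i-5p: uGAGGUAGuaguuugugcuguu
mmu-miR-98-5p: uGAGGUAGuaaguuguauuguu

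All 9 sequences were 22 bases long and held the seed GAGGUAG. Against let-7a-5p, with positions counted from 1 at the 5′ end and the base of let-7a-5p given first, let-7c-5p differed by A19G, let-7f-5p by G12A and let-7e-5p by U9G. let-7b-5p carried A17G and A19G, and let-7d-5p carried U1A, which makes it the one member that starts with A, and U16C. let-7g-5p and let-7i-5p shared G12U and U18C, to which let-7i-5p added A17G and A19U. miR-98-5p carried G11A and A19U. Of the 36 possible pairs of members, 4 differed at a single base and the most distant pair at 6 bases.

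The 9 names are encoded by 12 genes, since let-7a-5p, let-7c-5p and let-7f-5p each come from 2 genes whose counts cannot be separated. Mirlet7a-1 (chr13:48538179-48538272), Mirlet7f-1 (chr13:48537829-48537917) and Mirlet7d (chr13:48536012-48536114) lie in a row on the minus strand, 261 and 1714 bases apart. Mirlet7c-2 (chr15:85706603-85706697) and Mirlet7b (chr15:85707319-85707403) are 621 bases apart within the span of the long noncoding gene Lncppara. Mirlet7f-2 (chrX:151912346-151912428) and Mir98 (chrX:151913214-151913321) are 785 bases apart within the span of the protein-coding gene Huwe1. Mirlet7e (chr17:17830352-17830444), within the span of Spaca6, lies between Mir99b and Mir125a, and Mirlet7c-1 (chr16:77599657-77599750) lies between Mir99a and Mir125b-2. Mirlet7a-2 (chr9:41536716-41536811), within the span of the noncoding gene Mir100hg, lies between Mir100 and Mir125b-1. Mirlet7g (chr9:106178840-106178927) lies within the span of Wdr82, with Mir135a-1 within 50000 bases. Mirlet7i (chr10:122985640-122985724) had no other miRNA gene within that distance. All coordinates are those of RefSeq on GRCm38.p6.

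Replicate 1 held 3776893 miRNA counts and replicate 2 held 4122955. Counts were divided by these totals to give CPM, counts per 1000000 miRNA counts. The floor set by a count of 0 was taken as 3 counts, which is 0.794 CPM in replicate 1 and 0.728 CPM in replicate 2. Intervals and limits cover counting error only, since reads without molecular identifiers are not independent molecules. As a check of the labelled cell type, 7 epithelial miRNAs (miR-205-5p, miR-203-3p and the miR-200 family) summed to 10.6% of counts in each library. Shorter lists of 2 neural, 3 muscle, 1 liver, 4 blood and 4 mesenchymal names with a count in either library summed to between 0.000450% and 0.0114%. The mesenchymal sum was 0.00249% in replicate 1 and 0.00997% in replicate 2, and miR-214-3p in that list had 26 and 364 counts.

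The family took 4.68% of all miRNA counts in replicate 1, where it had 176637 counts (Wilson 95% interval 4.66% to 4.70%). In replicate 2 it took 4.37%, from 180268 counts (4.35% to 4.39%), which gives a mean of 4.52% ± 0.215 (SD, n = 2). The summed counts were lower in replicate 2 by a log2 ratio of -0.10 (exact 95% interval -0.11 to -0.09), a fold of 0.935. The counts were divided unevenly. let-7c-5p, let-7b-5p and let-7a-5p together held 68.4% ± 1.50 of the family's counts and the 4 least abundant names 15.3% ± 1.42 (SD, n = 2).

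let-7c-5p was the most abundant member, with 66590 counts (17631 CPM) in replicate 1 and 64848 counts (15729 CPM) in replicate 2. It ranked 12 and 13 among all names in the respective libraries and held 37.7% and 36.0% of the family. let-7b-5p followed with 8506 and 7685 CPM, a share of 18.2% and 17.6%. These names, which differ only at position 17, kept nearly the same ratio: let-7c-5p had 2.07 times the counts of let-7b-5p in replicate 1 and 2.05 times in replicate 2 (2.06 ± 0.0185, SD, n = 2). let-7a-5p was the third with 6362 and 6043 CPM, 13.6% and 13.8% of the family. The gap between let-7b-5p and let-7a-5p was a ratio of 1.30 ± 0.0462, a distance from 1 larger than its SD.

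The middle of the order held 3 names at closer levels. let-7f-5p had 4164 and 3699 CPM, or 8.90% and 8.46% of the family. let-7e-5p had 3416 and 3436 CPM, the most even of the 9 names, and its share was 7.30% and 7.86%. let-7g-5p had 2759 and 3161 CPM, and its share was 5.90% and 7.23%. All 3 kept their order in both libraries, but the steps were not much larger than the spread. let-7f-5p had 1.15 ± 0.101 times the counts of let-7e-5p, and let-7e-5p had 1.16 ± 0.107 times those of let-7g-5p (SD, n = 2), which is 1.47 and 1.52 SD above 1.

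At the low end, let-7d-5p had 1998 and 1777 CPM and let-7i-5p had 1624 and 1857 CPM. This was the one pair of neighbours whose order changed: the ratio of let-7d-5p to let-7i-5p was 1.23 in replicate 1 and 0.957 in replicate 2 (1.09 ± 0.194), so their levels did not differ beyond the spread. miR-98-5p, the member with a different number, was set apart from the rest. It had 1167 counts (309 CPM) and 1385 counts (336 CPM), 0.661% and 0.768% of the family, and let-7i-5p had 5.39 ± 0.194 times its counts. From first to last the levels spanned 51.9 ± 7.24-fold (SD, n = 2).

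**Figure D1:**
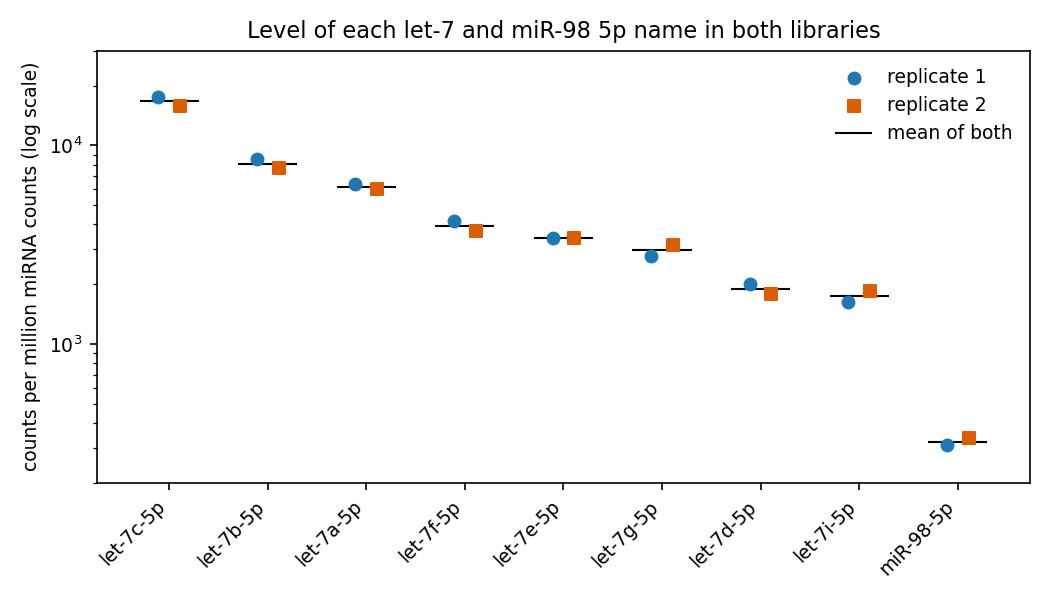
Level of each member in CPM, on a log axis, with replicate 1 as circles, replicate 2 as squares and the mean of both as a line. let-7c-5p lies at 17631 and 15729 CPM and miR-98-5p at 309 and 336 CPM, while the symbols of let-7d-5p and let-7i-5p change order.

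**Figure D2:**
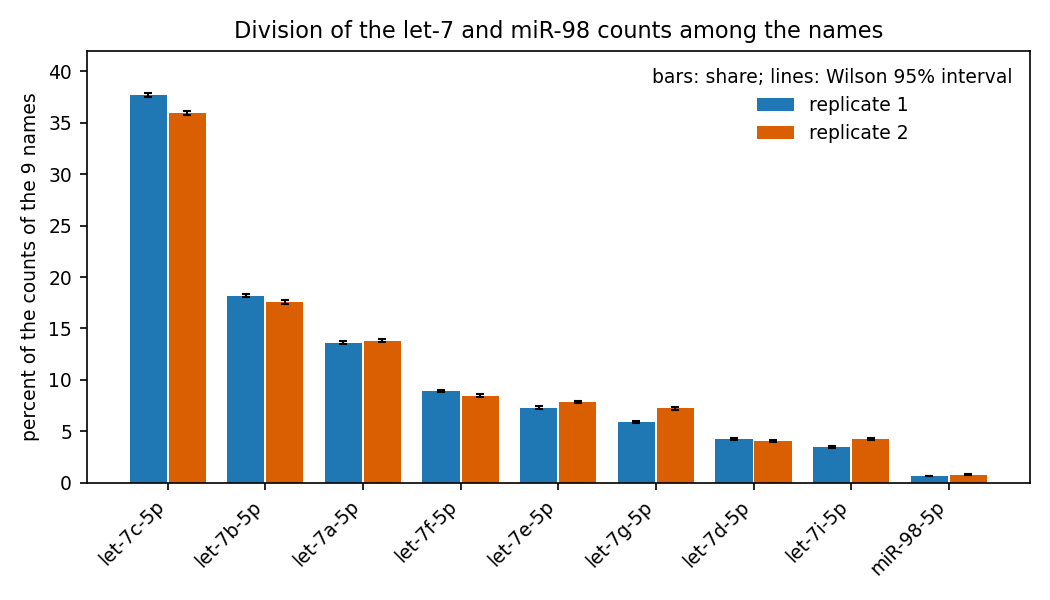
Share of each member in the counts of the 9 names, in percent, for replicate 1 and replicate 2, with Wilson 95% intervals as lines. let-7c-5p falls from 37.7% to 36.0% and let-7g-5p goes from 5.90% to 7.23%.

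Each member was then compared between the libraries with an exact two-sided binomial test, run over all 1002 names whose mean count was 10 or more and adjusted over them by the Benjamini-Hochberg method. At an adjusted p of 0.05, 7 of the 9 members differed between the libraries (77.8%), where 70.6% of all names tested did. Replicate 2 was higher for 2 members, where 36.2% of all names were higher, and lower for 5, where 34.3% were lower. The member count is thus close to the background, and a call here says only that a difference exceeds the counting error of reads. No member shifted by more than 0.20 on the log2 scale. The median log2 ratio of the members was -0.07, against -0.0048 for all names tested. The median size of the ratio without its sign was 0.16 against 0.61, but the abundances are unlike. Over names with mean counts of 30 to 100 this size was 0.97, and over those of 10000 or more it was 0.0526. No member had a mean count below 1000.

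Of the 5 members that fell in replicate 2, 4 did so by similar amounts. The log2 ratio was -0.17 for let-7f-5p, -0.17 for let-7d-5p, -0.16 for let-7c-5p and -0.15 for let-7b-5p, and the interval of let-7c-5p was -0.18 to -0.15 (exact binomial test, adjusted p = 4.43e-93). let-7a-5p fell less, by 0.07 on the log2 scale. The 2 members that rose were let-7g-5p, with a log2 ratio of 0.20 (0.16 to 0.23, exact binomial test, adjusted p = 7.38e-24), and let-7i-5p, with 0.19 (0.15 to 0.24, adjusted p = 3.73e-14). These are the members that share G12U and U18C. let-7e-5p, with a ratio of 0.0086 (-0.03 to 0.04), and miR-98-5p, with 0.12 (0.0072 to 0.23), did not pass. For miR-98-5p the adjusted p of the exact binomial test was 0.0504, and it passed with TMM factors (0.0459) or DESeq2 size factors (0.0234).

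These shifts were also set beside those of names at like abundance. The SD of the log2 ratio was 0.218 over the 59 names whose mean count was 10000 or more, which include the 6 most abundant members, and 0.333 over the 100 names from 1000 to 10000 counts, which include the other 3. All 9 members were inside 1 SD of their class. In the upper class, whose SD includes miR-5099 with 57754 and 151461 counts, the median size of the ratio was 0.0526. There 5 of the 6 members moved by more than this median, let-7e-5p being the exception. In the lower class the median size was 0.159, which let-7d-5p and let-7i-5p exceeded and miR-98-5p did not. When counts were first divided by 20.7, a variance-to-mean index taken from names with mean counts of 10 to 300, a range that holds no member, let-7c-5p alone among the members still passed.

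**Figure D3:**
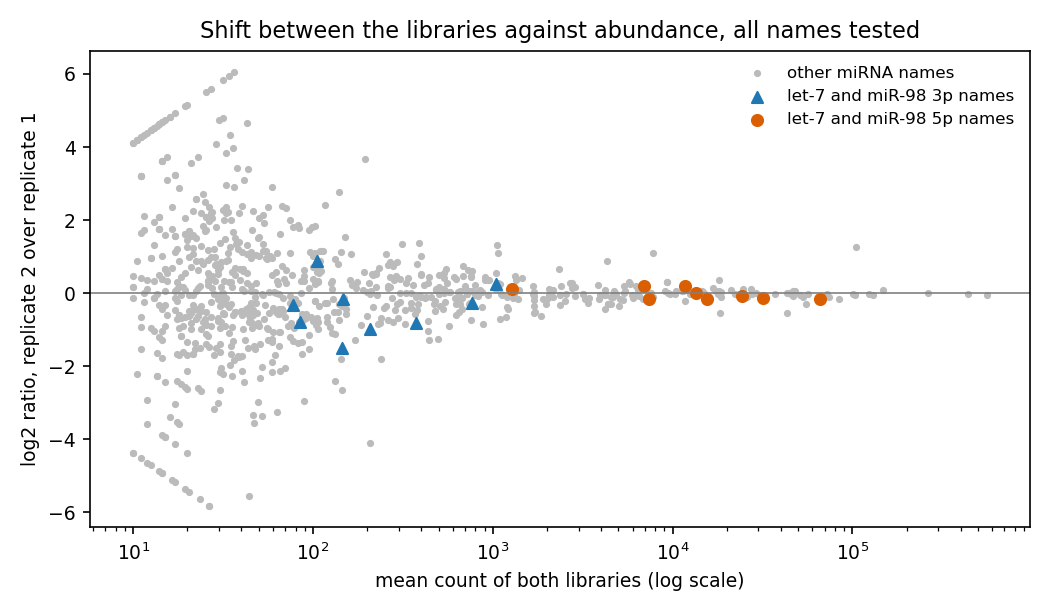
Log2 ratio of replicate 2 over replicate 1 against the mean count of both libraries (log axis) for the 853 tested names with a count in each library; 149 tested names at 0 in one library have no finite ratio and are not drawn. The members (filled orange circles) lie between -0.17 and 0.20 in the narrow right-hand part of the cloud, and their 3p names (triangles) lie at lower counts, between -1.50 and 0.87.

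Scaling by the family's own counts separates a change of its division from the lower total in replicate 2. On this scale let-7g-5p was higher in replicate 2 by a log2 ratio of 0.29 (exact 95% interval 0.26 to 0.33), let-7i-5p by 0.29 (0.24 to 0.34), miR-98-5p by 0.22 (0.10 to 0.33) and let-7e-5p by 0.11 (0.07 to 0.14). let-7f-5p, let-7d-5p, let-7c-5p and let-7b-5p were lower, by -0.07, -0.07, -0.07 and -0.05, with all 4 intervals below 0. let-7a-5p, which had fallen on the scale of all counts, lay at 0.02 with an interval that held 0 (-0.0026 to 0.05). So 4 members were above and 4 below the shift of the family as a whole. Scaling by the family's own sum puts members on both sides by construction. As a description of these groups, which were formed from the same ratios, the 4 above went from 17.3% to 20.1% of the family and the 4 below from 69.1% to 66.1%.

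**Figure D4:**
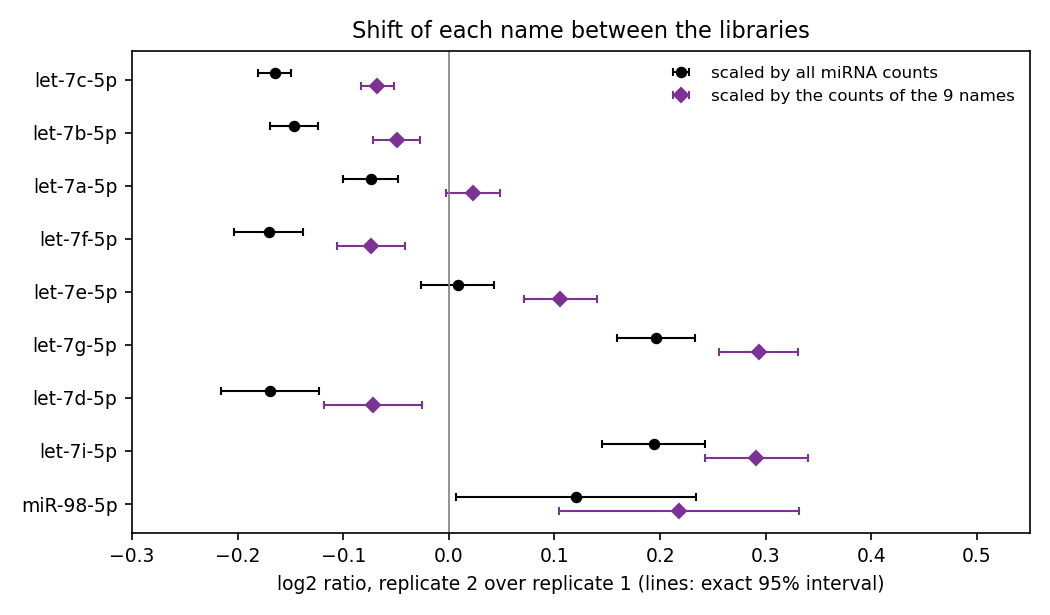
Log2 ratio of replicate 2 over replicate 1 for each member, scaled by all miRNA counts (circles) and by the counts of the 9 names (diamonds), with exact 95% intervals as lines. let-7g-5p and let-7i-5p lie above 0 on both scales, let-7c-5p, let-7b-5p, let-7f-5p and let-7d-5p below 0 on both, and let-7a-5p changes side.

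Reads of near-identical names can be split by the counting, and how the authors assigned reads that match several names is not given in the sources used here. The 4 pairs that differ at a single base were therefore also summed. let-7c-5p had 2.69 ± 0.119 times the counts of let-7a-5p (SD, n = 2), and their summed counts shifted by a log2 ratio of -0.14 (-0.15 to -0.13). let-7a-5p had 1.58 ± 0.0748 times the counts of let-7f-5p and 1.81 ± 0.0734 times those of let-7e-5p. The summed ratio was -0.16 for let-7c-5p with let-7b-5p, -0.11 for let-7a-5p with let-7f-5p and -0.04 for let-7a-5p with let-7e-5p. The part of read assignment in these ratios was not tested.

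Names from one gene cluster were recovered at different levels, as ratios of reads that ligation and amplification can shift for each sequence. let-7f-5p had 2.08 ± 0.00159 times and let-7a-5p 3.29 ± 0.153 times the counts of let-7d-5p, although the chr13 cluster encodes all 3. let-7a-5p and let-7f-5p each have a further gene elsewhere. miR-98-5p, whose gene lies beside Mirlet7f-2, had far fewer counts than let-7f-5p, by 12.2 ± 1.74-fold.

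The miRNAs encoded beside Mirlet7e, Mirlet7c-1 and Mirlet7a-2, which are miR-99a-5p, miR-99b-5p, miR-100-5p, miR-125a-5p and miR-125b-5p, are seed families of their own. miR-125a-5p was the leading name of these 5, with 19381 and 18120 CPM, and had 5.47 ± 0.283 times the counts of its neighbour let-7e-5p. let-7e-5p had 1.88 ± 0.120 times the counts of its other neighbour, miR-99b-5p (1905 and 1751 CPM). In the other clusters miR-99a-5p and miR-100-5p were low. miR-99a-5p had 180.0 and 75.2 CPM, against the 17631 and 15729 CPM of let-7c-5p, and miR-100-5p had 20.9 and 17.2 CPM, against 6362 and 6043 CPM of let-7a-5p. Both let-7 names also have a gene outside these clusters, and the part of their counts from each gene is not known. miR-125b-5p, which has a gene in each of these clusters, had 1833 and 1646 CPM. Of these 5 listed neighbours, 4 fell in replicate 2 and none rose by the same test, where 34.3% and 36.2% of all names did, and miR-100-5p did not pass. The log2 ratios of these 4 were -0.10 for miR-125a-5p, -0.12 for miR-99b-5p, -0.16 for miR-125b-5p and -1.26 for miR-99a-5p, the last with 680 and 310 counts. miR-135a-5p, outside this list, has a gene within 50000 bases of Mirlet7g. It had 21 and 86 counts and rose, with a log2 ratio of 1.91 (1.21 to 2.67, exact binomial test, adjusted p = 9.12e-09). Names with mean counts of 30 to 100, which include it, differed widely between the libraries. The SD of their log2 ratio was 1.71 and 66.4% of them were called. Scaled by the let-7 counts, miR-125a-5p and miR-99b-5p no longer passed the exact binomial test (adjusted p = 1 and 0.360). let-7e-5p, whose gene lies between theirs, had a log2 ratio of 0.11 on this scale. miR-125b-5p and miR-99a-5p still passed as lower (exact binomial test, adjusted p = 0.0264 and 8.98e-33).

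The miR-30 family, also spread over several 5p names, served as a comparison. Its leader, miR-30c-5p, held 38.7% ± 0.189 of the counts of 5 names, against the 36.8% ± 1.22 of let-7c-5p in its family (SD, n = 2). The least abundant of these 5 names, miR-30a-5p, held 9.90%. miR-30f, a further name with 808 and 1289 counts, was not in this list. Between the libraries the summed miR-30 counts had a log2 ratio of -0.0051 (-0.02 to 0.0067). This interval does not overlap that of the let-7 sum, but both cover counting error only and not the spread between libraries. The 5 names lay between -0.05 and 0.06. Of these, miR-30a-5p was higher in replicate 2, miR-30e-5p and miR-30d-5p were lower, and 2 did not pass. With DESeq2 size factors neither of these lower calls held (exact binomial test, adjusted p = 0.331 for miR-30e-5p and 0.0783 for miR-30d-5p), and miR-30c-5p passed as higher (0.0247). By level in both libraries, the names outside the family nearest to let-7c-5p were miR-182-5p (18391 ± 176 CPM), miR-125a-5p and miR-31-3p (14271 ± 239 CPM). Those nearest to let-7b-5p were miR-30b-5p (7346 ± 23.8 CPM), miR-29b-3p (7007 ± 70.2 CPM) and miR-200b-3p (9408 ± 161 CPM).

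The 3p strands of the same hairpins, which the choice of members did not use, were far less abundant. The 10 listed 3p names summed to 3100 and 2838 counts, 1.64% ± 0.124 of both arms (SD, n = 2). That total includes let-7c-5p, which had no 3p name of its own listed. With copies of a gene summed, 8 of the hairpins had both arms listed, and in all 8 the 5p arm dominated in each library (exact two-sided binomial tests adjusted over 185 hairpins with at least 100 counts in each library), where 59.5% of the 185 hairpins did. The 5p arm held 97.4% ± 0.240 of the summed counts of these 8 hairpins (SD, n = 2). The let-7a 3p counts may include reads of let-7c-2-3p, which has the sequence of let-7a-1-3p, although let-7c-5p is not in this sum. The 3p arm was not equally rare among these hairpins. It made up 12.9% of the let-7i hairpin's counts in replicate 1, with a Wilson 95% interval of 12.2% to 13.7%, and 13.3% in replicate 2, with one of 12.6% to 14.1%. The miR-98 hairpin had 11.3% and 9.54%, and the let-7d hairpin 9.63% and 8.95%. The other 5 ranged by mean from 1.60% for let-7a and 1.30% for let-7g down to 0.569% for let-7e. The median over all hairpins with a dominant 5p arm, these included, was 4.64%, which 3 of the 8 exceeded.

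**Figure D5:**
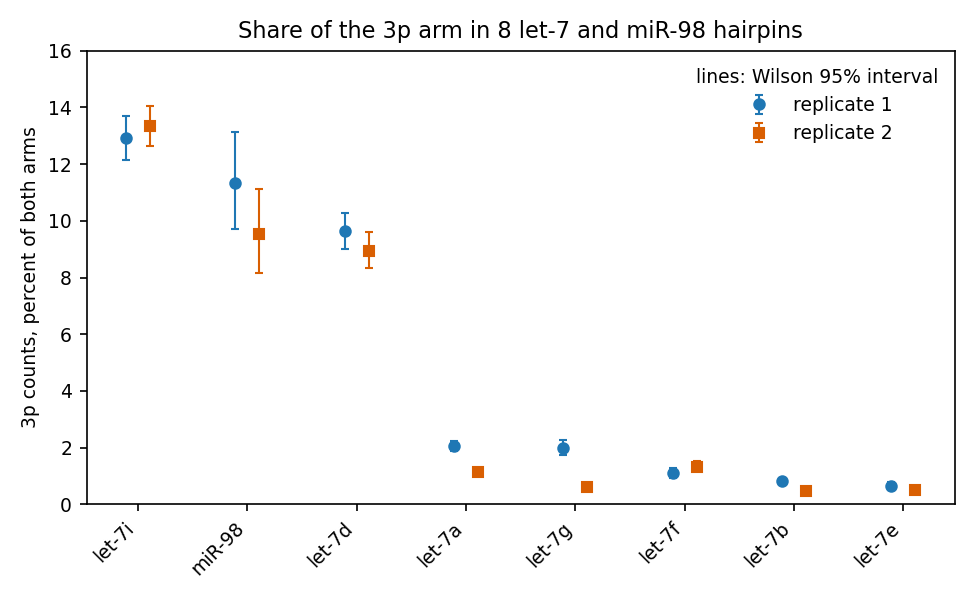
3p counts as a percent of the counts of both arms in the 8 hairpins with both arms listed, for replicate 1 and replicate 2, with Wilson 95% intervals as lines. let-7i, miR-98 and let-7d lie between 8.95% and 13.3%, and the other 5 lie at or below 2.05%. The 3p counts of let-7a may include reads of let-7c-2-3p.

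The hairpins of let-7i and let-7g are shown because their 5p names moved together while their 3p names did not, and those of let-7c because no 3p name of its own was listed. The capitals mark the mature 5p and 3p strands in the RefSeq hairpins (GRCm38.p6).

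Mirlet7i (chr10:122985640-122985724, minus strand): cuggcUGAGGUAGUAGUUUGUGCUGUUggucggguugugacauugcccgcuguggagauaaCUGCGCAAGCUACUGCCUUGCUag
Mirlet7g (chr9:106178840-106178927, plus strand): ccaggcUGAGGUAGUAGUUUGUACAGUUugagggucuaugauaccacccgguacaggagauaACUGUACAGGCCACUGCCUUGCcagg
Mirlet7c-2 (chr15:85706603-85706697, plus strand): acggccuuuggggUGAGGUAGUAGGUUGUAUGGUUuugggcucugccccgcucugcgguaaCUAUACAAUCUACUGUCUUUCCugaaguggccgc
Mirlet7c-1 (chr16:77599657-77599750, plus strand): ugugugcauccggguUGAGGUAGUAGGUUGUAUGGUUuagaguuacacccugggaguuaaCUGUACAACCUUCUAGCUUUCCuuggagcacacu
Mirlet7a-1 (chr13:48538179-48538272, minus strand): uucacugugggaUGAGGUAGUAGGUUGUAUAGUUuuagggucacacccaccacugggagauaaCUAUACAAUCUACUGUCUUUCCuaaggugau

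let-7i-3p had 909 and 1178 counts and rose in replicate 2 with a log2 ratio of 0.25 (0.12 to 0.37, exact binomial test, adjusted p = 0.000205), as did its 5p strand. let-7g-3p had 210 and 81 counts and fell, with a log2 ratio of -1.50 (-1.89 to -1.12), while its 5p strand rose. The 3p share of the let-7g hairpin was 1.98% (1.73% to 2.26%) in replicate 1 and 0.618% (0.497% to 0.767%) in replicate 2, so these intervals do not overlap, whereas those of let-7i do. Of the 10 listed 3p names, 8 differed between the libraries, where 70.6% of all names did: 6 were lower in replicate 2, among them let-7a-1-3p (465 and 288 counts) and let-7b-3p (269 and 148 counts), and 2 were higher. These counts lie where the libraries differ widely for any name, with an SD of the log2 ratio of 1.04 over the 102 names with mean counts of 100 to 300. With counts divided by 20.7 as above, none of the 7 called 3p names with counts in both libraries still passed. Both let-7f genes have a 3p name, and these went in opposite directions, with 104 and 65 counts of let-7f-1-3p and 70 and 140 of let-7f-2-3p. let-7a-2-3p had 38 counts and 0, and was at least 13.8-fold higher in replicate 1, taking 3 counts as the floor in replicate 2. The exact 95% interval of its log2 ratio, which also covers the counting error of the 38 counts, reached up to -3.42.

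let-7c, the hairpin of the most abundant guide, had no 3p counts under its own names. let-7c-1-3p and let-7c-2-3p were at 0 in both libraries, and 3 counts would be 0.00451% and 0.00463% of the hairpin's counts. The mature strand of let-7c-2-3p is the same 22 bases as that of let-7a-1-3p, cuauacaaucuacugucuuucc, so its reads cannot be told apart from those of let-7a-1-3p, which was listed with 465 and 288 counts. Set against let-7a-5p and let-7c-5p together, the 3p counts of let-7a were 0.436% ± 0.164 of the total (SD, n = 2). let-7c-1-3p differs from that strand at 5 bases. Whether the authors' reference held it is not given in the sources used here.

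Outside the 9 members, RefSeq lists the seed GAGGUAG in let-7k and miR-1961 only, and let-7j carries the let-7 name with another base 8. let-7k had 1 count in replicate 1 and 20 in replicate 2, a log2 ratio of 4.20 with a wide interval (1.55 to 9.57). let-7j had 3 counts in each library, at the limit that a count of 0 allows, and miR-1961 had 0. Nearly all counts with the let-7 seed were therefore those of the 9 members.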

How the data were processed

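The authors deposited whole-number counts per mature miRNA name, 1 table for each of the 2 libraries. cutadapt, Novoalign and build mm10 are named in the submitters' processing notes, without versions. The miRNA reference and the treatment of PCR copies, chimeric reads and reads matching several names are not given in the sources used here. Names listed in only one table were set to 0 in the other, and rows that name no miRNA (0.00265% and 0.000218% of counts) were left out.

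Shares carry Wilson 95% intervals and means the SD of both libraries. Log2 ratios have no pseudocount and carry exact 95% intervals. Each name with a mean count of 10 or more was tested by the two-sided exact binomial test, with the library totals as reference, adjusted by Benjamini-Hochberg over all 1002 names. Hairpin arms were compared by an exact two-sided binomial test within each library, 5p against 3p counts with equal shares as reference. These tests were adjusted over the 185 hairpins with at least 100 counts in each library. The test was checked on data simulated with counting error only, which cannot show how it behaves under the wider spread of these libraries. Alternatives used edgeR 4.0.16, DESeq2 1.42.0 and R 4.3.3. The rest used Python 3.11.15, pandas 2.3.3 and scipy 1.17.1. RefSeq tables matched all 9 members.

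The members, lists and alternatives were chosen with earlier results of these data known. All members, their 3p arms, neighbours, the miR-30 names, other names with the seed and the 3 names nearest in level to the 2 most abundant members were named.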

Additional observations from a re-analysis of the deposited data

How the results depend on the processing

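Without miR-31-5p in the total the family share was 5.28%, and with all names numbered from 2000 upward removed it was 4.99%, both following from the smaller total. The number of names called different between the libraries was 254 when the minimum mean count was 100, where fewer were tested, 441 when a 2-fold ratio was also asked for, and 16 with counts divided by the variance-to-mean index. The last divisor came from the same libraries, so a drop was built in. Of the members, the 2-fold ratio left 0 higher and 0 lower (exact binomial test; 2 and 5 without it), and the divided counts left 0 higher and 1 lower. Scaled by the members' own counts, 4 were higher, and the direction turned for let-7a-5p (0.0230), miR-125a-5p (4.4e-05), miR-30b-5p (0.0905), miR-30d-5p (0.0471) and miR-30e-5p (0.0608), which follows from moving 0 to the family's shift. TMM factors and DESeq2 size factors kept the side of the threshold for 8 of 9 members, the exception being miR-98-5p. The count minimums and the 0.01 threshold changed no member's call. Leaving out each library gives only the value of the other. No paired analysis was possible because all samples belong to 1 group.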

Other observations

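Among the 36 pairs of members, the ratio of counts was steadiest between the libraries for let-7f-5p and let-7d-5p, at 2.084 in replicate 1 and 2.082 in replicate 2, followed by let-7g-5p and let-7i-5p, at 1.699 and 1.702. Both pairs were singled out after their values were seen. Mirlet7f-1 and Mirlet7d lie in 1 cluster, whereas Mirlet7g and Mirlet7i lie on different chromosomes. let-7c-5p and let-7d-5p, also from different chromosomes, came next, at 8.83 and 8.85. The cause of these steady ratios was not tested.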
